A study of Arabidopsis thaliana with 30 samples.

Results

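The results describe 1530 Arabidopsis thaliana genes whose transcripts responded to antimycin A both in seedlings that overexpress SnRK1a (SnRK1aOX) and in wild type (WT), and how far the response of each gene differed between these lines. Antimycin A blocks complex III of the mitochondrial respiratory chain. The genes are those listed for both lines in the authors' deposited tables, out of 6297 genes listed for any of the 5 lines of the series. For each gene the difference is the change in SnRK1aOX, antimycin A minus mock, less the same change in WT. It asks whether more SnRK1a alters how transcripts respond when respiration is blocked.

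The groups were SnRK1aOX with antimycin A, SnRK1aOX with mock treatment, WT with antimycin A and WT with mock treatment, with 3 libraries each, so 12 of the 30 libraries of the series were used. All were whole seedlings, 10 days old, grown on solid medium with sucrose, then placed in liquid medium for 5 h with 50 µM antimycin or for a mock treatment. The columns taken for SnRK1aOX carry the name KIN10V17, and KIN10 is another name of SnRK1a. The deposited WT table is named Col, while the titles and column names of SnRK1aOX name no background accession. Which promoter drives the overexpression, and whether the line is a single transformant, the labels do not state. They also do not say whether the 3 libraries of a group are from separate cultures, so the p-values capture only how these samples vary, and that variation may be technical.

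SnRK1 is a protein kinase that is active when sugar and energy are short. It is known for switching on genes that break down amino acids, sugars and cell wall sugars, and for holding back genes of growth. Blocked mitochondria send signals to the nucleus that switch on alternative respiration, detoxification and heat shock genes, which is called mitochondrial retrograde signalling.

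Both tables list only genes with a q under 0.05 whose log2 fold change exceeded 1 in size, which are the authors' calls. For SnRK1aOX there were 2187 genes, 1316 higher and 871 lower with antimycin A, and for WT there were 3481, 1383 higher and 2098 lower. Listed as higher in both were 873 genes, which is 66.3% of the higher genes of SnRK1aOX and 63.1% of those of WT. Listed as lower in both were 653 genes, 74.97% of the lower genes of SnRK1aOX and 31.1% of those of WT. The other 4 genes were higher in SnRK1aOX and lower in WT. A further 439 higher and 218 lower genes were listed for SnRK1aOX and not for WT, and 510 higher and 1441 lower for WT and not for SnRK1aOX. A gene that is missing from a table was below the thresholds or not measured, so these counts do not show that it failed to respond. Just inside the thresholds, the smallest absolute log2 fold change of a member in the authors' deposited table was 1.00 in either line, and the highest q was 0.0488 in SnRK1aOX and 0.0490 in WT. Genes just outside were not analysed here.

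Values are read counts that the authors adjusted for library size, separately in each table, so changes are compared between the lines and levels are not. KIN10, JMJ15 and CRF6, for which lines of the series are named, and KIN11 are listed in neither table (0 of 4). The SnRK1aOX label thus could not be checked from KIN10. Of 20 leaf and photosynthesis markers, 1 was listed for SnRK1aOX and 1 for WT, and of 15 root cell type markers 5 and 11 were. The tables hold responding genes alone, so the labelled tissue could not be checked from its markers. Sequencing depth is unknown.

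**Figure D1:**
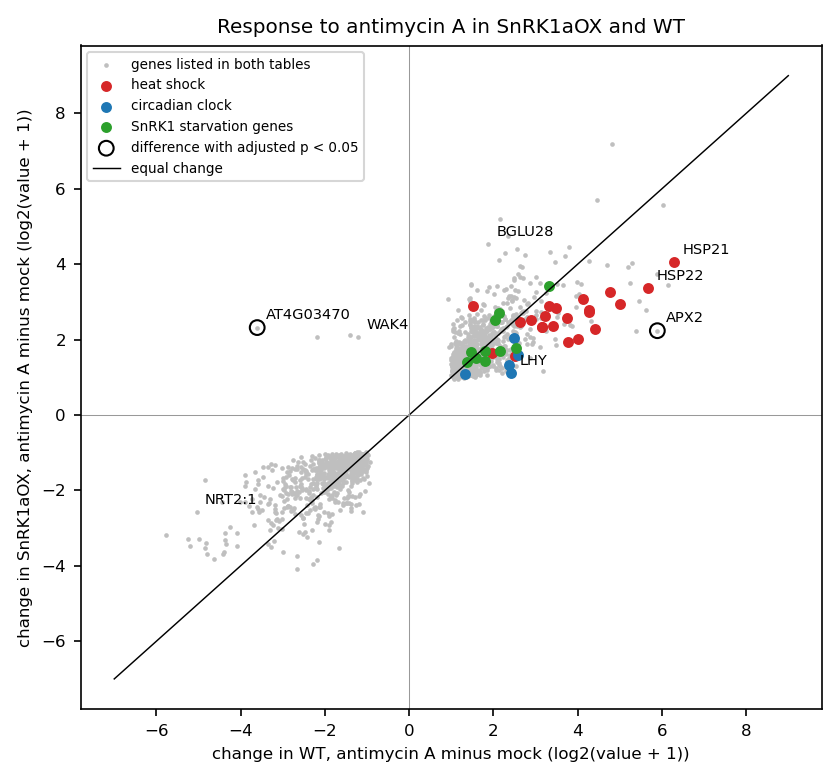
Change with antimycin A in SnRK1aOX (vertical axis) against WT (horizontal axis), in log2(value + 1), for the 1530 genes listed in both tables; each point is a gene and the line marks equal change. Red heat shock genes lie mostly below the line, blue clock genes lie below it, green starvation genes lie along it, and rings mark the 2 genes that passed the test.

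The responses of the 2 lines were of similar size for most of these genes. The difference lay within 1 log2 unit for 1347 of the 1530 genes (88.0%), with a median of 0.10 and an interquartile range of -0.17 to 0.47. Genes higher in both had a median change of 1.67 in SnRK1aOX and 1.55 in WT, and 504 of the 873 had the larger change in SnRK1aOX. Genes lower in both had a median change of -1.52 in SnRK1aOX and -1.77 in WT, and 435 of the 653 (66.6%) were lowered less in SnRK1aOX. Across genes the changes in the 2 lines correlated with a Pearson's r of 0.62 among the 877 genes higher in SnRK1aOX and 0.64 among the 653 lower ones. Genes are not independent replicates, and the listing itself sets the lower end of both changes.

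The difference passed an adjusted p of 0.05 for 2 of 1530 genes (0.131%), with limma and Benjamini-Hochberg adjustment over all 1530. One gene had a difference above 0 (0.0654%) and the other a difference below 0 (0.0654%). At an unadjusted p under 0.05 there were 148 genes (9.67%), 100 with a difference above 0 (6.54%) and 48 below 0 (3.14%). The median standard error of a difference was 0.39, and the median 95% interval, which is unadjusted, reached 0.85 to either side. Passing the adjusted p took more than that: AT4G35720, at 0.99 ± 0.18, did not pass (adjusted p = 0.0731 with limma). Differences of 0.85, and larger ones too, were thus not detectable for the typical gene. Genes whose mean value was above the median of 456.5 had a median standard error of 0.29, against 0.56 for those below it.

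APX2 (AT3G09640), a cytosolic ascorbate peroxidase that removes hydrogen peroxide, passed. In SnRK1aOX it had 51.1, 38.9 and 38.3 with antimycin A, against 7.20, 10.1 and 7.61 with mock treatment. In WT it had 62.9, 39.6 and 79.7 with antimycin A and was listed at 0 in the 3 mock libraries. Treated and mock libraries did not overlap in either line. Among all 1530 genes they overlapped for 70 in SnRK1aOX and for 29 in WT, and listing already required a change in both lines. The difference of APX2 was -3.66 ± 0.56 (SE, 95% interval -4.86 to -2.45, adjusted p = 0.0372 with limma). Because a group is at 0, this fitted value depends on the constant added before the logarithm and is no fold change: with 10 added instead of 1 it was -1.26 and its adjusted p was 0.157. Leaving out 1 library at a time, APX2 passed without replicate 2 of WT antimycin A (adjusted p = 0.0407 with limma) or replicate 2 of WT mock (0.0423), and without any of the other 10 its adjusted p was between 0.0561 and 0.116.

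AT4G03470, which encodes a protein with ankyrin repeats, was the other gene that passed, and its response had opposite signs. In SnRK1aOX it had 2.12, 6.55 and 4.26 with antimycin A and was listed at 5.55e-17, in effect 0, in the 3 mock libraries. Values in WT were 4.04, 0.0279 and 0 with antimycin A, against 26.7, 12.2 and 24.6 with mock treatment. Every value is low, and again a group is at 0. The fitted difference was 5.93 ± 0.98 (SE, adjusted p = 0.0401 with limma), and 1.95 with an adjusted p of 0.0593 when 10 was added. It passed without replicate 1 of WT antimycin A (adjusted p = 0.00781) or replicate 2 of WT mock (0.0432), and without any of the other 10 libraries its adjusted p was between 0.0561 and 0.147. Among the 1530 genes, 40 had all 3 libraries of some group under 0.1, and both genes that passed are of these 40. Restricted to the 1321 genes with a mean value of at least 50, 0 passed with limma, and 130 had an unadjusted p under 0.05.

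The other 3 genes listed as higher in SnRK1aOX and lower in WT did not pass. WAK4 (AT1G21210), a wall-associated receptor kinase, had 45.9, 43.3 and 42.6 in SnRK1aOX with antimycin A, against 4.16, 19.6 and 10.5 with mock treatment. For WT they were 54.7, 43.5 and 26.9 with antimycin A, against 101, 105 and 79.0 with mock treatment. The treated libraries lay above the mock ones in SnRK1aOX and below them in WT, without overlap. The difference of WAK4 was 3.29 ± 0.65 (adjusted p = 0.0846 with limma). It was 3.54 ± 0.81 for AT5G46890, a lipid-transfer-like protein (adjusted p = 0.118), and 4.24 ± 1.08 for BGAL14 (AT4G38590), a beta-galactosidase whose SnRK1aOX mock libraries were all at 5.55e-17 (adjusted p = 0.145). These 4 genes, AT4G03470 among them, were chosen by their opposite signs in the authors' tables, which come from the same values. Those signs, and the differences above 0 that follow from them, are thus a description.

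**Figure D2:**
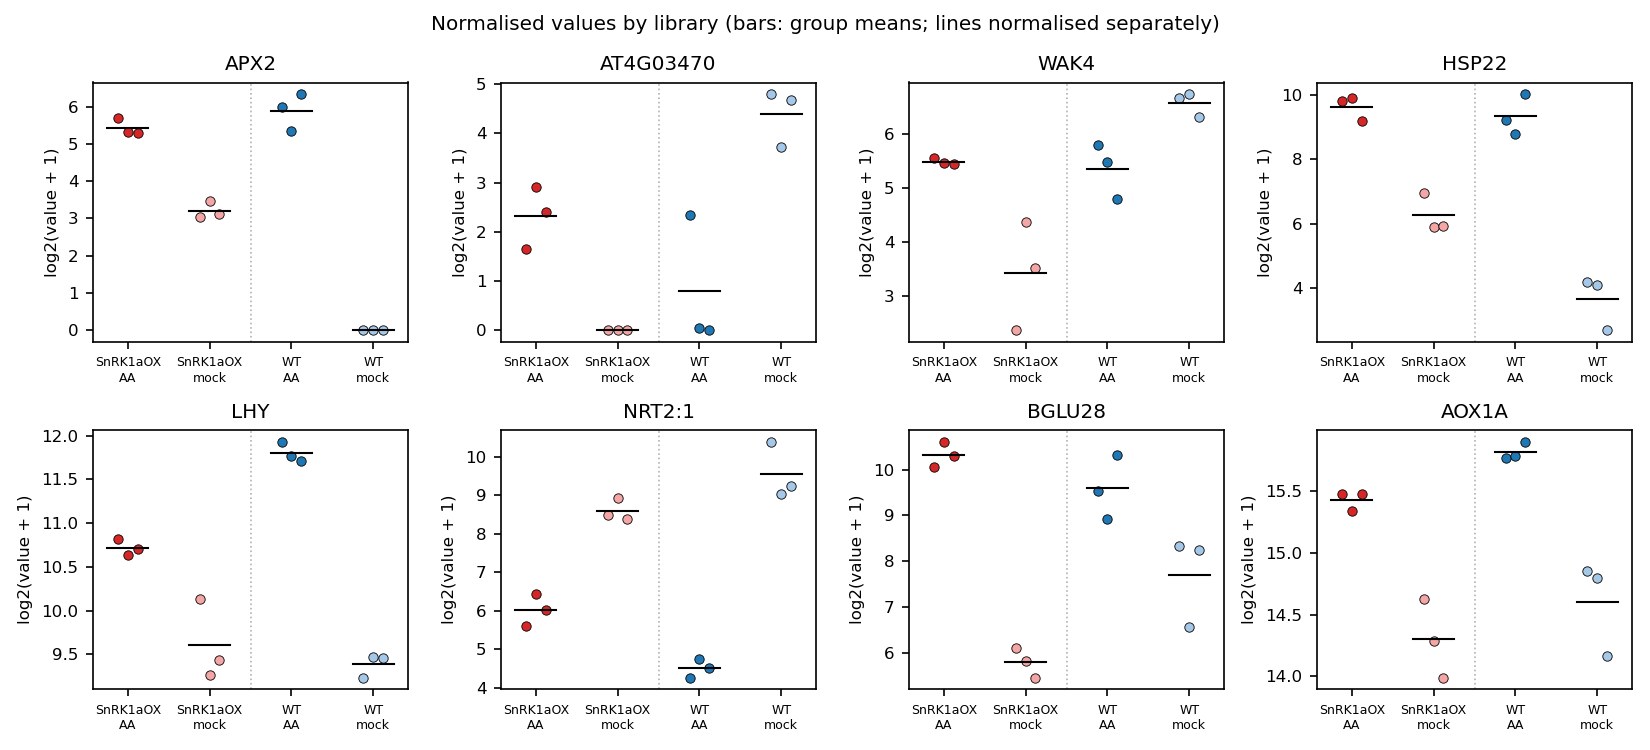
Values of 8 genes in each of the 12 libraries, as log2(value + 1), with antimycin A (AA) left of mock in each line and bars at the group means; the lines were normalised separately. The WT mock libraries of APX2 and the SnRK1aOX mock libraries of AT4G03470 lie at 0, WAK4 is higher with antimycin A in SnRK1aOX and lower in WT, and AOX1A is higher in both lines.

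The 30 genes with the lowest unadjusted p contained 8 genes higher in both lines, of which 7 had the smaller change in SnRK1aOX, 18 lower in both, of which 16 were lowered less in SnRK1aOX, and the 4 with opposite signs. Apart from APX2 and AT4G03470 none of them passed, and they are described here by their values. Members of the gene lists that are named below with an unadjusted p, and were not among these 30, were chosen after their values had been seen.

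Heat shock genes had smaller increases in SnRK1aOX than in WT. Their products are chaperones that keep proteins from clumping, and the heat shock factors that switch them on. Of the 26 genes on the list, 22 were listed for both lines, all of them higher with antimycin A, and 21 of the 22 had a difference below 0, against 587 of all 1530. Their median change was 2.61 in SnRK1aOX and 3.62 in WT, and the median difference was -1.05, against 0.10 over all genes. None passed the adjusted p with limma, and 14 of the 22 had an unadjusted p under 0.05 with a difference below 0, where the background is 3.14%. These genes share libraries and regulators, so the 14 are not 14 independent observations. This list and those below were chosen with earlier results of these data known. Their counts beside the background are thus a description and no test. HSFA7A was listed for SnRK1aOX alone and HSFB2B for WT alone.

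The differences farthest below 0 were those of small heat shock proteins, but not all of this family lay far from 0. HSP15.7 (AT5G37670) had -0.16 ± 0.64 and HSP17.6A (AT5G12030) -1.03 ± 0.52. HSP22 (AT4G10250), which resides in the endoplasmic reticulum, had 894, 956 and 582 in SnRK1aOX with antimycin A, against 123, 58.5 and 60.0 with mock treatment. The WT values were 591, 439.5 and 1032 with antimycin A, against 17.2, 16.2 and 5.50 with mock treatment. No treated library overlapped a mock one, and the change was 3.37 ± 0.46 in SnRK1aOX and 5.67 ± 0.46 in WT, a difference of -2.30 ± 0.65 (adjusted p = 0.195 with limma). HSP17.6C (AT1G53540), a cytosolic member, had 1509.7, 1266 and 959 in SnRK1aOX with antimycin A, against 310.0, 277 and 181 with mock treatment. WT seedlings had 1236, 1317 and 2070.0 with antimycin A, against 123, 39.6 and 69.6 with mock treatment. Its changes were 2.29 ± 0.37 in SnRK1aOX and 4.40 ± 0.37 in WT, a difference of -2.11 ± 0.53 (adjusted p = 0.132). HSP17.8 (AT1G07400), also cytosolic, had a difference of -1.54 ± 0.42 (adjusted p = 0.171). HSP21 (AT4G27670), the chloroplast member, changed by 4.05 ± 0.73 in SnRK1aOX and by 6.30 ± 0.73 in WT, the largest WT change of the list, with a wide spread among its mock libraries (136, 81.4 and 29.3 in SnRK1aOX, and 38.4, 13.2 and 2.59 in WT).

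Regulators and larger chaperones covered a wider range. HSFA2 (AT2G26150), a heat shock factor that sustains the response, changed by 2.79 ± 0.35 in SnRK1aOX and 4.28 ± 0.35 in WT, a difference of -1.48 ± 0.49. For HSP101 (AT1G74310), a chaperone that dissolves aggregates, the changes were 2.63 ± 0.19 in SnRK1aOX and 3.22 ± 0.19 in WT, a difference of -0.59 ± 0.27. HSP70 (AT3G12580) had a difference of -0.94 ± 0.37 and HSP90.1 (AT5G52640) of -0.37 ± 0.47. The exception in sign was HSFA7B (AT3G63350), a further heat shock factor, with changes of 2.90 ± 0.51 in SnRK1aOX and 1.51 ± 0.51 in WT.

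**Figure D3:**
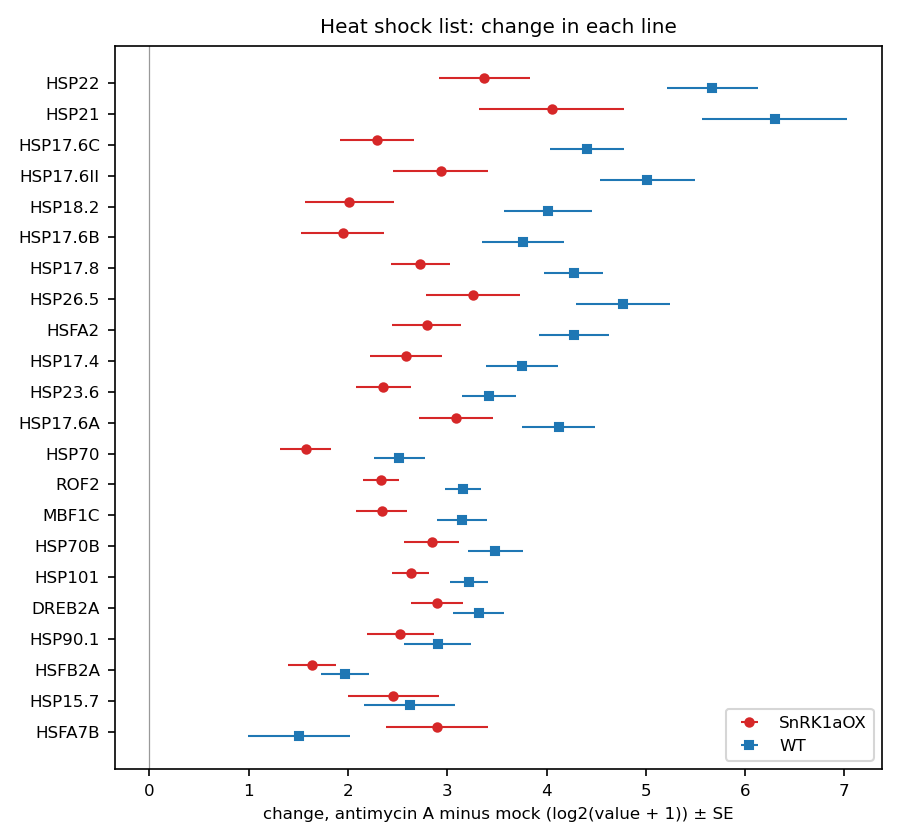
Change with antimycin A of the 22 heat shock genes listed for both lines, in log2(value + 1), with bars of 1 standard error (n = 3 libraries per group), ordered by the difference. The SnRK1aOX point lies left of the WT point for 21 genes, the farthest being HSP22, and right of it for HSFA7B.

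The median of log2(value + 1) over the 22 genes was 11.1, 10.7 and 10.3 in the SnRK1aOX libraries with antimycin A, against 8.68, 8.40 and 8.11 with mock treatment. In WT it was 11.2, 11.1 and 11.4 with antimycin A, against 8.48, 7.07 and 7.79 with mock treatment. The WT mock libraries thus spread over more than 1 unit, and leaving out replicate 2 of WT mock, the lowest, brought the median difference of the list to its value nearest 0 among the 12 such fits. That median was between -1.38 and -0.77 whichever library was left out. In the other lines of the series, which are the mutants crf6-2, jmj15-2 and snrk1a-2, the authors' deposited tables gave median log2 fold changes, over the 21 heat shock genes listed in all 5, of 2.66 in SnRK1aOX, 2.76 in crf6-2, 1.91 in jmj15-2 and 2.91 in snrk1a-2, against 3.63 in WT. WT had the highest of the 5 values for 16 of the 21 genes, so a lower value than in WT was not found in SnRK1aOX alone. Each of these lines is set against the same WT libraries.

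Heat shock factors bind the heat shock element. The promoters of APX2, which passed the test, and of HSP17.6C, which has the lowest p on the heat shock list, are shown because both hold this element near the gene start. Both are the 250 bases before the annotated gene start, 5′ to 3′ on the plus strand, read by gene ID from the TAIR10.1 assembly of RefSeq, chr3:2955906-2956155 and chr1:19980049-19980298. Capitals mark GAANNTTC or TTCNNGAA, which read the same on both strands and may overlap.
APX2: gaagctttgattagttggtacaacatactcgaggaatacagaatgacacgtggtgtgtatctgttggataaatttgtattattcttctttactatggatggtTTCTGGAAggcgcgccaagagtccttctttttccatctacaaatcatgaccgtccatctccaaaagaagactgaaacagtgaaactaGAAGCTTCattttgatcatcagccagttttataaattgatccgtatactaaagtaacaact
HSP17.6C: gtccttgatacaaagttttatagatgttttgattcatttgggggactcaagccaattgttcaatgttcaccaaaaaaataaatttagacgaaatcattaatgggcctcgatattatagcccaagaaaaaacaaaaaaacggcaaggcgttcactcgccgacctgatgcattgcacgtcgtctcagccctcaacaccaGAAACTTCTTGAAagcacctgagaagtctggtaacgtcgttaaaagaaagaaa
In APX2 the matches begin at -148 and -61 from the gene start, and in HSP17.6C at -53 and -48, where they overlap. Over windows of 250 bases before to 50 after the gene start, a match was present in 12 of 22 heat shock genes (54.5%), in 215 of 854 genes higher in both lines (25.2%), in 322 of 1511 genes listed for both (21.3%) and in 5287 of 27443 nuclear protein-coding genes (19.3%). The windows of HSP22 and HSP17.8 held none. A match is a run of letters and not a shown binding site.

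Genes of the circadian clock that peak at dawn also had smaller increases in SnRK1aOX. Of 13 clock genes, 5 were listed for both lines, all higher with antimycin A and all 5 with a difference below 0. Their median change was 1.33 in SnRK1aOX and 2.41 in WT, and the median difference was -0.997. Over all genes 587 of 1530 had a difference below 0. None passed the adjusted p with limma, and 3 of the 5 had an unadjusted p under 0.05, where the background below 0 is 3.14%. LHY (AT1G01060), a dawn-expressed repressor of the clock, had 1802, 1595 and 1666 in SnRK1aOX with antimycin A, against 1119, 613 and 691 with mock treatment. In WT it had 3904, 3493 and 3347 with antimycin A, against 601, 709 and 705 with mock treatment. The libraries of a treatment stood close together, except replicate 1 of SnRK1aOX mock, which lay above the other mock libraries of its line.

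The change of LHY was 1.11 ± 0.20 in SnRK1aOX and 2.41 ± 0.20 in WT, a difference of -1.30 ± 0.28 (adjusted p = 0.108 with limma). CCA1 (AT2G46830), its partner, had a difference of -0.997 ± 0.37 and RVE8 (AT3G09600), an activator of evening genes, of -1.04 ± 0.31. RVE1 (AT5G17300), which links the clock to auxin, and PRR9 (AT2G46790), a morning repressor, had -0.44 ± 0.29 and -0.26 ± 0.48. PRR5 was listed for SnRK1aOX alone. Over the 4 clock genes listed in all 5 lines, the authors' deposited tables gave a median log2 fold change of 1.41 in SnRK1aOX, which was the lowest line for each of the 4 genes, with 1.90 in crf6-2, 2.08 in jmj15-2 and 1.86 in snrk1a-2, against 2.45 in WT. The labels give no time of day for the harvest.

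Starvation genes, through which SnRK1 activity is usually read, had similar median changes in the 2 lines. Of 22 genes on the list, 15 were listed for SnRK1aOX and 11 for WT, where 2187 and 3481 genes were listed in all. Listed for both were 10, all higher with antimycin A, with a median change of 1.70 in SnRK1aOX and 1.92 in WT. The medians cover these 10 alone. The difference was above 0 for 5 and below 0 for 5, its median was -0.03, and none had an unadjusted p under 0.05. Among replicate libraries the list median of log2(value + 1) had a pooled SD of 0.54, so the list allows only a coarse comparison. ASN1 (AT3G47340), an asparagine synthetase that is the classic SnRK1 target, had 8640.0, 7481 and 3161 in SnRK1aOX with antimycin A, against 392, 3009 and 921 with mock treatment. WT libraries had 23116, 19278 and 10572 with antimycin A, against 4602, 4715 and 3148 with mock treatment. Its SnRK1aOX mock libraries were far apart, and its difference, 0.48 ± 0.86, has a 95% interval of -1.38 to 2.34.

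DIN1 (AT4G35770), a dark-induced gene also known as a senescence marker, had a difference of 0.57 ± 0.53, and DIN10 (AT5G20250), a raffinose synthase family member, of 0.23 ± 0.37. For DIN2 (AT3G60140), a beta-glucosidase, it was 0.10 ± 0.84, and for BGAL4 (AT5G56870), a beta-galactosidase, -0.37 ± 0.62. GDH1 (AT5G18170) and GDH2 (AT5G07440), the glutamate dehydrogenases, had 0.03 ± 0.25 and -0.11 ± 0.32. DIN3 (AT3G06850) and DIN4 (AT3G13450), subunits of the branched-chain ketoacid dehydrogenase, had -0.08 ± 0.35 and -0.45 ± 0.41, and DIN11 (AT3G49620), a dioxygenase, had -0.74 ± 0.36. The intervals of ASN1, DIN1, DIN2 and BGAL4 span more than 1 unit to either side of their values, so a difference of that size was not detectable there. SEN5, BT2, STP1 and BZIP1 were listed as higher, and BZIP11 as lower, for SnRK1aOX and not for WT, and PRODH1 as higher for WT and not for SnRK1aOX.

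Breakdown of branched-chain amino acids feeds electrons to respiration when sugar is short, and 7 of its 11 genes were listed for both lines, all higher. Their median change was 1.70 in SnRK1aOX and 1.83 in WT. Differences ran from -0.45 to 0.28 and none had an unadjusted p under 0.05. The list of trehalose phosphate enzymes holds synthase and phosphatase family genes, named for a sugar signal that restrains SnRK1. Of these, 4 of 17 were listed for both lines. TPPB (AT1G78090), a trehalose phosphate phosphatase, had 154, 70.2 and 84.1 in SnRK1aOX with antimycin A, against 235, 541 and 374 with mock treatment. Values in WT were 56.8, 67.4 and 56.8 with antimycin A, against 728, 518 and 646 with mock treatment. It was lower with antimycin A in both lines without overlap, and its difference was 1.46 ± 0.48 (unadjusted p = 0.00991, adjusted p = 0.297 with limma). TPS8 and TPS11, which were higher in both lines, and TPS5, which was lower in both, had differences between -0.10 and 0.33.

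Mitochondrial stress genes had similar median changes too. Of 28 genes, 15 were listed for both lines, all higher, with a median change of 1.76 in SnRK1aOX and 1.49 in WT. The difference was above 0 for 10 and below 0 for 5, against 943 of all 1530 genes above 0. Its median was 0.15, against 0.10 over all genes, and none had an unadjusted p under 0.05. AOX1A (AT3G22370), the alternative oxidase that bypasses complex III, had 45579.5, 41418 and 45625 in SnRK1aOX with antimycin A, against 25242, 19985 and 16262 with mock treatment. For WT they were 55979.8, 56522 and 61289 with antimycin A, against 29653, 28542 and 18322 with mock treatment. The change was 1.13 ± 0.22 in SnRK1aOX and 1.21 ± 0.22 in WT, and the 95% interval of the difference was -0.75 to 0.58. SOT12 (AT2G03760), a sulfotransferase, had a difference of 0.15 ± 0.31, and UGT74E2 (AT1G05680), which conjugates the auxin indole-3-butyric acid, of 0.58 ± 0.41. AOX1B and UPOX were listed for WT alone.

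Detoxification genes gave a mixed picture. Among glutathione transferases, which couple glutathione to reactive compounds, 20 of 33 were listed for both lines, 13 with a difference above 0 and 7 below. Their median difference was 0.24. Over all genes 943 of 1530 were above 0, with a median of 0.10. GSTU22 (AT1G78340) had 0.89 ± 0.37 and GSTU5 (AT2G29450) -0.69 ± 0.25, each with an unadjusted p under 0.05. GSTF14 (AT1G49860), a phi class member and the only one of the 20 that was lower with antimycin A, had 323, 255 and 170.3 in SnRK1aOX with antimycin A, against 669, 2101 and 1209 with mock treatment. The WT values were 208, 199 and 231 with antimycin A, against 6924, 4674 and 3093 with mock treatment, and the difference was 2.14 ± 0.55 (adjusted p = 0.145 with limma). Of 10 UDP-glycosyltransferases, 9 were listed for both, 8 with a difference above 0, with a median of 0.17 and none at an unadjusted p under 0.05. Genes of GSTU clusters that are near copies of each other may share reads, so their single values are uncertain.

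**Figure D4:**
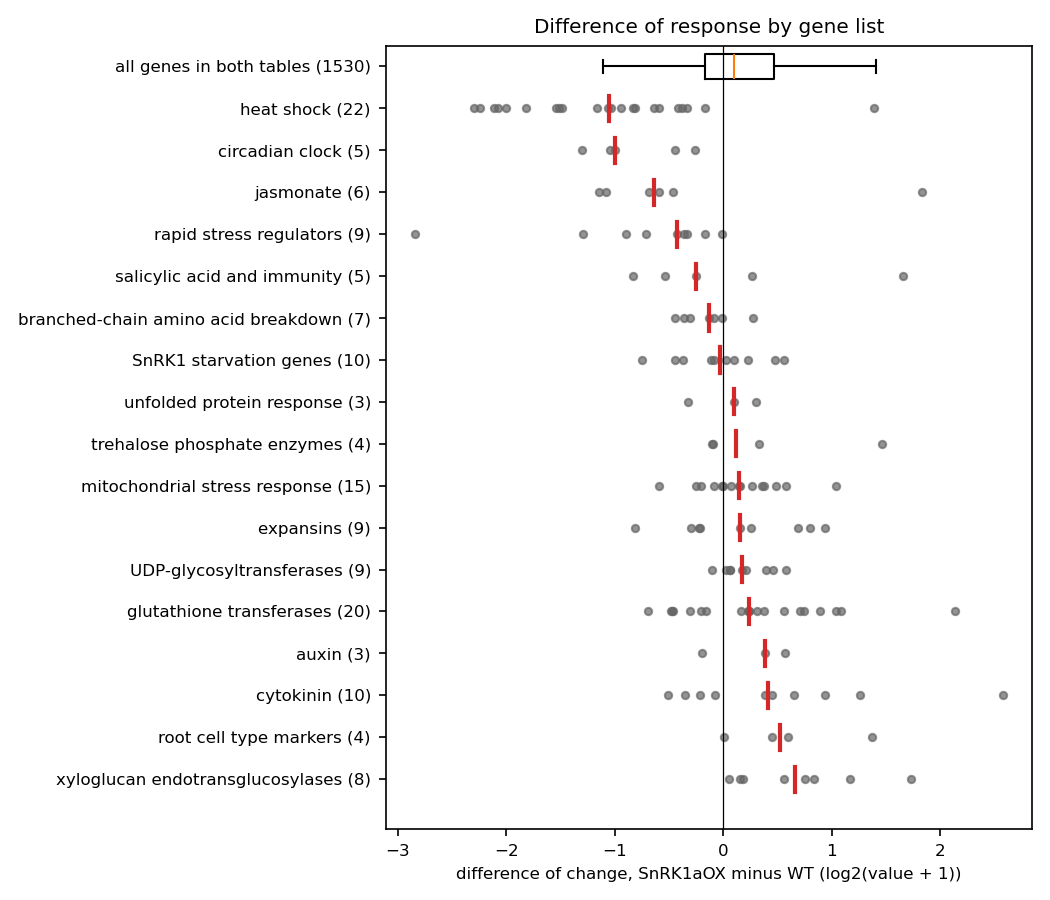
Difference of response, SnRK1aOX minus WT, in log2(value + 1), for lists with at least 3 genes listed in both tables (number in brackets); dots are genes, red bars the medians, and the box shows the quartiles of all 1530 genes. Heat shock, at -1.05, and clock genes, at -0.997, have the lowest medians, starvation genes lie around 0, and xyloglucan endotransglucosylases, at 0.66, have the highest.

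Genes of nutrient uptake, root cell types, cytokinin and cell walls were mostly lower with antimycin A in both lines, and none of those described next passed the adjusted p of the difference with limma. NRT2:1 (AT1G08090), which takes up nitrate into roots at low supply, had 48.1, 85.1 and 63.8 in SnRK1aOX with antimycin A, against 356, 485 and 336 with mock treatment. WT seedlings had 18.3, 26.0 and 21.9 with antimycin A, against 1343, 522 and 607 with mock treatment. The change was -2.58 ± 0.35 in SnRK1aOX and -5.04 ± 0.35 in WT, a difference of 2.46 ± 0.50 (adjusted p = 0.0876 with limma). In whole seedlings, fewer cells of a type and less RNA per cell cannot be told apart. Of 21 genes of nitrogen and iron uptake, 2 were listed for SnRK1aOX, NRT2:1 and IRT1, and 9 for WT. Over all genes, 871 were listed as lower for SnRK1aOX and 2098 for WT. IRT1 (AT4G19690), the main iron transporter, had a difference of 1.69 ± 1.88, and its SnRK1aOX treated and mock libraries overlapped.

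Of 15 root cell type markers, 5 were listed for SnRK1aOX and 11 for WT, and 4 for both, all 4 lower with antimycin A. Among them CASP1 and CASP4, which build the Casparian strip of the endodermis, had differences of 0.01 ± 0.56 and 1.38 ± 0.78, and PER64, a peroxidase of the same barrier, had 0.45 ± 0.81. In SnRK1aOX the treated and mock libraries of CASP1 and PER64 overlapped. The root hair genes COBL9, RSL4, PRP3, LRX1, EXPA7 and EXPA18 were listed as lower for WT and not for SnRK1aOX. Over all genes, 1441 of the 2098 listed as lower for WT were likewise not listed for SnRK1aOX. The root hair listing is thus no trait of these genes. The part of these markers in the differences of other root genes was not tested.

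LAX3 (AT1G77690), an auxin importer of the root, had 978, 911 and 824 in SnRK1aOX with antimycin A, against 1639.7, 2443 and 1982 with mock treatment. In WT it had 722, 597 and 888 with antimycin A, against 3528, 3513 and 3181 with mock treatment. Its change was -1.14 ± 0.18 in SnRK1aOX and -2.23 ± 0.18 in WT (difference 1.08 ± 0.26, adjusted p = 0.118 with limma). ABCG14 (AT1G31770), which exports cytokinin from the root, had a difference of 1.18 ± 0.32, and the neighbouring lipid-transfer-like genes AT4G12510 and AT4G12520 had 2.14 ± 0.51 and 1.69 ± 0.45. These 2 carry the same annotation, and reads of near copies may be shared. Of 29 cytokinin genes 10 were listed for both lines, with a median difference of 0.42 and none at an unadjusted p under 0.05. The largest differences on that list were those of CYP735A1 (2.58 ± 1.33), which makes trans-zeatin, and IPT5 (1.27 ± 0.62), a cytokinin synthase.

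Among xyloglucan endotransglucosylases, which cut and rejoin wall polymers, 8 of 23 were listed for both lines, and all 8 had a difference above 0, against 943 of all 1530 genes. In 7 of them this was a smaller decrease in SnRK1aOX, and in XTH30 a larger increase. XTH8 (AT1G11545) had 1512, 1515 and 1573 in SnRK1aOX with antimycin A, against 4739, 4815 and 4727 with mock treatment. WT libraries had 939, 930.2 and 1083 with antimycin A, against 4613, 6431 and 5434 with mock treatment. The groups were tight, and the difference was 0.84 ± 0.20 (adjusted p = 0.118 with limma). XTH31 (AT3G44990) had a difference of 0.75 ± 0.34. Expansins, which loosen walls, were less uniform: 9 of 19 were listed for both lines, 5 with a difference above 0 and 4 below, from 0.94 for EXPA17 to -0.81 for EXPA5, with EXPA11 (AT1G20190) at 0.80 ± 0.26.

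Further genes lowered less in SnRK1aOX came from several families. AT4G35720, a protein of unknown function with a DUF241 domain, had 1405, 1636 and 1665 in SnRK1aOX with antimycin A, against 3648, 4122 and 3796 with mock treatment. Values in WT were 744, 700.4 and 813 with antimycin A, against 3512, 3941 and 3588 with mock treatment. The libraries of each group lay close together, and the difference was 0.99 ± 0.18 (adjusted p = 0.0731 with limma). AT3G53250, of the auxin-responsive SAUR family, had 1.78 ± 0.35 (adjusted p = 0.0846), DRT100 (AT3G12610), a leucine-rich repeat protein, 1.12 ± 0.24 (adjusted p = 0.108), and AT4G30650, a membrane protein of the family that responds to cold and salt, 1.38 ± 0.30 (adjusted p = 0.116). BRL2 (AT2G01950), a receptor kinase of vascular development, had 0.73 ± 0.20, and PG1 (AT1G60390), a polygalacturonase family member, 1.02 ± 0.27. AT1G30080, a glycosyl hydrolase, had 1.87 ± 0.45, AT1G49230, a RING/U-box protein, 1.36 ± 0.34, and AT3G20015, an aspartyl protease, 0.94 ± 0.24.

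Only HTH and 4CL3, of the 18 genes lower in both among the 30, were lowered more in SnRK1aOX. HTH (AT1G72970), an oxidoreductase of cuticle formation, had 952, 1139 and 1039 in SnRK1aOX with antimycin A, against 4584, 3522 and 4539 with mock treatment. For WT they were 1964, 1689 and 1649 with antimycin A, against 3451, 4355 and 3215 with mock treatment. Its difference was -0.96 ± 0.23 (adjusted p = 0.118 with limma), and that of 4CL3 (AT1G65060), a 4-coumarate:CoA ligase of flavonoid synthesis, was -1.48 ± 0.38 (adjusted p = 0.152).

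BGLU28 (AT2G44460), a beta-glucosidase known from sulfur starvation, was the 1 gene of the 30 with a larger increase in SnRK1aOX. It had 1071, 1559 and 1251 in SnRK1aOX with antimycin A, against 67.7, 55.6 and 42.8 with mock treatment. The WT values were 739, 484 and 1268 with antimycin A, against 319.8, 93.5 and 299.9 with mock treatment. The groups did not overlap in either line, and the change was 4.53 ± 0.45 in SnRK1aOX and 1.88 ± 0.45 in WT (difference 2.65 ± 0.64, adjusted p = 0.118 with limma). Leaving out 1 library at a time, the difference of BGLU28 lay between 2.31 and 3.22, and its adjusted p with limma between 0.0423 and 0.314. It passed only without replicate 2 of WT mock, its lowest WT value (difference 3.22, adjusted p 0.0423). Among the genes with smaller increases were AT1G32880, an ARM repeat protein (-2.01 ± 0.45, adjusted p = 0.118), and AT5G05220, of unknown function, which was listed at 0 in the 3 WT mock libraries (-2.71 ± 0.74, adjusted p = 0.176).

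Jasmonate genes mostly had smaller increases in SnRK1aOX. Of 28 on the list, 6 were listed for SnRK1aOX and 11 for WT, where 2187 and 3481 genes were listed in all. Listed for both were 6, 5 with a difference below 0 and 1 above, with a median of -0.64. Over all genes 587 of 1530 had a difference below 0. None of the 6 passed the adjusted p with limma. An unadjusted p under 0.05 was found for 2 below 0 and 1 above, where the backgrounds are 3.14% and 6.54%. LOX2 (AT3G45140) and AOC2 (AT3G25770), enzymes of jasmonate synthesis, had smaller increases in SnRK1aOX, with differences of -1.14 ± 0.36 and -1.08 ± 0.31. CYP94B3 (AT3G48520), which inactivates the hormone, had 956, 656 and 717 in SnRK1aOX with antimycin A, against 14.5, 50.1 and 60.2 with mock treatment. WT seedlings had 791, 933 and 828 with antimycin A, against 144, 170.4 and 119 with mock treatment, and its difference was 1.83 ± 0.58 (adjusted p = 0.288 with limma). The repressors JAZ5 and JAZ9 had -0.69 ± 0.44 and -0.46 ± 0.42.

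Of 25 genes of salicylic acid and immunity 5 were listed for both lines. PAD3 (AT3G26830), the last enzyme of camalexin synthesis, had a difference of 1.66 ± 0.58, and FRK1 (AT2G19190), a receptor kinase used as an immune marker, of -0.83 ± 0.38, and neither passed. All 9 rapid stress regulators listed for both lines, of 16, had a difference below 0, against 587 of all 1530 genes. An unadjusted p under 0.05 was found for 1 of the 9, where the background below 0 is 3.14%. Their median was -0.43, and it lay between -0.65 and -0.20 when 1 library was left out. The farthest was ERF109 (AT4G34410), an ethylene response factor, at -2.84 ± 1.27, whose WT mock libraries lay between 0 and 11.5. ZAT12 (AT5G59820), a zinc finger factor of oxidative stress, had -0.01 ± 0.47. Fewer than 4 genes were listed for both lines from the abscisic acid (2 of 22), auxin (3 of 22) and unfolded protein response (3 of 10) lists, and none from cell cycle and ribosome assembly (0 of 12).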

How the data were processed

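RNA of whole seedlings was sequenced, and 12 of 30 libraries were used. The submitters' processing notes name Bowtie 0.12.2 and the build TAIR10. No tool for counting, normalisation or testing is given in the sources used here. The deposited signal holds size-adjusted read counts, scaled by the authors separately per table, per the file headers and the values. Each table also has a log2 fold change deposited by the authors, with p-values and q-values, and the WT table the -log10 of the deposited q-value. The q was under 0.05 and the absolute log2 fold change over 1 for every listed gene.

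Changes were fitted with limma 3.58.1 (R 4.3.3) on log2(value + 1), with 4 group means and empirical Bayes moderation with trend, two-sided, and adjusted over 1530 genes by Benjamini-Hochberg. The added 1 understates changes of low genes. The procedure was tested on simulated data. Replicate numbers were not used as a block, because same-numbered libraries did not deviate together. The rule named all genes that passed, those with the lowest unadjusted p up to 30, and the genes with opposite signs. It also named AOX1A, the starvation genes and the 2 members of each list with the highest mean. Not all of these last are described above. Other list members were named after their values had been seen, often those with larger differences. The 22 gene lists hold 426 entries. Members and lists were chosen with earlier results of these data known. Promoters came from the TAIR10.1 assembly of RefSeq, and 1511 of the 1530 genes had a window. Alternatives changed the added constant, filters, scaling, moderation and weights, added the replicate block, left out each library, and used the authors' fold changes and p-values, which was chosen after seeing the data. Depth is unknown, so no counting interval is given. The values of 1 root marker are not reported here.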

Additional observations from a re-analysis of the deposited data

Results flagged for a closer look

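The response to antimycin A of APX2 differed between SnRK1aOX and WT by the test of the difference itself, at -3.66. That of AT4G03470 differed likewise, at 5.93. It was listed with opposite signs in the authors' tables, which come from the same values, so a difference above 0 was set by its listing. Both values are differences of log2(value + 1) from limma, and in both genes 1 of the 4 groups is at or next to 0 in all 3 libraries.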

How the results depend on the processing

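The number of genes past an adjusted p of 0.05, first above and then below 0, was 1 and 1, and stayed so with 0.5 added or with libraries rescaled by median of ratios. It was 0 and 0 with 10 added, with a mean value of at least 50 and under the replicate block (130 genes at an unadjusted p under 0.05), 0 and 1 with a q under 0.01 in both tables, 2 and 1 without trend, and 10 and 2 with limma's arrayWeights. From the authors' fold changes and p-values, an approximate test chosen after seeing the data, it was 37 and 23, with 9 heat shock genes among the 60. Leaving out 1 library gave 0 to 2 above and 0 to 1 below: APX2, AT4G03470 and BGLU28 passed without replicate 2 of WT mock, AT4G03470 alone without replicate 1 of WT antimycin A, APX2 alone without replicate 2 of that group, and 0 genes without any of the other 9. The block pairs libraries by number, while the deviations of same-numbered libraries correlated at -0.35, -0.20 and 0.03 in SnRK1aOX and at -0.05, -0.001 and 0.03 in WT. The cause of these shifts was not tested. Between 19 and 21 of the 22 heat shock genes had a difference below 0 under every alternative, with 8 to 18 at an unadjusted p under 0.05. Rescaling moved the median difference of all genes by 0.02 and took the median change of all genes to 0.24 in SnRK1aOX and 0.20 in WT, against 1.17 and 1.15 as reported.

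With arrayWeights the median difference was 0.29 for xyloglucan endotransglucosylases and 0.17 for the unfolded protein response, and the sign turned for DIN2 (-0.0542), GDH1 (-0.0168), CASP1 (-0.40), PER64 (-0.35), IRT1 (-0.55) and ZAT12 (0.00476). It also turned with rescaling for IVD (0.00593) and ZAT12 (0.00383), and from the authors' fold changes for CASP1 (-0.0567). Leaving out 1 library, the median lay between -0.0221 and 0.47 for trehalose phosphate enzymes, between 0.0387 and 0.19 for the unfolded protein response and between 0.21 and 0.85 for xyloglucan endotransglucosylases. The median over all 1530 genes lay between 0.0390 and 0.18. Of the other medians given above, those that moved by over 1.5 times lay within 0.00889 to 0.34 for UDP-glycosyltransferases, 0.16 to 0.68 for cytokinin, 0.13 to 0.46 for glutathione transferases, -0.65 to -0.20 for rapid stress regulators, and, with the sign turned, -0.0528 to 0.36 for mitochondrial stress genes and -0.22 to 0.19 for starvation genes. Signs turned within -0.24 to 0.14 for AOX1A, -0.21 to 1.25 for ASN1, -0.91 to 0.17 for BGAL4, -0.50 to 0.33 for CASP1, -0.0134 to 0.47 for DIN10, -0.60 to 0.69 for DIN2, -0.40 to 0.23 for DIN3, -0.12 to 0.16 for GDH1, -0.30 to 0.0837 for GDH2, -0.76 to 0.0165 for HSP90.1, -0.23 to 0.25 for IVD, -0.0690 to 0.71 for MCCA, -0.25 to 0.89 for PER64, -0.57 to 0.12 for PRR9, -0.0281 to 0.36 for SOT12, -0.28 to 0.22 for TPS11, -0.25 to 0.43 for UGT73C5, -0.12 to 0.22 for XTH17 and -0.36 to 0.33 for ZAT12.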

Other observations

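Genes of the mitochondrial genome formed a group that was not described above. Of these, 22 were listed for SnRK1aOX and 37 for WT, and 19 for both, all 19 higher with antimycin A. Their median change was 1.51 in SnRK1aOX and 1.49 in WT, and their differences ran from -1.45 to 1.45 with a median of 0.02. None passed the adjusted p with limma, and 1 had an unadjusted p under 0.05.

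Some other members were listed in the remaining lines too, and the authors' deposited tables give their log2 fold changes. For APX2 these were 2.35 in SnRK1aOX, 3.92 in crf6-2 and 5.35 in snrk1a-2. For WT the deposited value was 8.93, but the WT mock libraries were listed at 0, so it is no measured fold change. APX2 was not listed for jmj15-2. For NRT2:1 they were -2.58 in SnRK1aOX, -3.77 in crf6-2, -2.22 in jmj15-2 and -2.09 in snrk1a-2, against -5.22 in WT. For BGLU28 they were 4.54 in SnRK1aOX, 2.83 in crf6-2, 4.19 in jmj15-2 and 4.12 in snrk1a-2, against 1.80 in WT.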
